A study of Mus musculus with 8 samples.

Results

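The *Gnas* imprinted locus holds the gene *Gnas* and its antisense non-coding gene *Nespas*, and its CpG methylation was followed here in neural precursor cells (NPCs) with and without Tet3 knockdown. All listed CpGs within the span of both genes and 5 kb on either side were taken, from position 174101738 to 174177245 of chromosome 2 in the mouse genome build mm9, with the genes as placed by the GENCODE vM1 annotation. *Gnas* (ENSMUSG00000027523) runs on the plus strand from 174109821 to 174172245, and *Nespas* (ENSMUSG00000086537) runs on the minus strand from 174106738 to 174120937. The region held 230 of the 757812 CpGs listed in the series, on 52 MspI fragments. The annotation gave 22 transcripts of *Gnas* and 3 of *Nespas*. Their start sites gave 9 promoters (−1 kb to +0.5 kb of a start), after windows of the same gene that overlapped by more than 50% were joined.

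The NPCs came from A2lox.cre mouse ES cells carrying a doxycycline-inducible shRNA, which targets *Tet3* (shTet3, Tet3 KD) or, as the Scrambled control, nothing (shScr), and both groups received doxycycline at 2 µg/ml for 5 days. Each shRNA had 2 replicates. Each replicate had an oxidative bisulphite library (oxBS), where C calls stem from 5mC alone, and a bisulphite library (BS), where they stem from 5mC or 5hmC, which gave 8 reduced representation libraries (RRBS, MspI fragments from 100 ng of DNA). Both libraries of a replicate were taken to share its DNA, which the labels do not state. The deposited values are the coverage of each CpG and the percent of its calls that are C. Total calls per library ran from 42516767 to 61865967, and the median CpG was covered 43 to 54 times. At the locus, CpGs covered 10 times or more in every oxBS library were used for 5mC, and the median coverage of these lay between 45 and 64. The cells carry shRNA constructs in ES cell lines, and nothing in the labels says how the replicates were obtained, so that the spread between them may be technical. Neither the level of *Tet3* nor NPC identity can be read from methylation calls, and the parental alleles cannot be told apart in these files.

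Imprinted genes are expressed from the maternal or the paternal allele alone, and the choice follows DNA methylation that was laid down in the germ line. *Gnas* encodes Gsα, the G protein subunit that couples receptors to adenylyl cyclase, and the locus uses alternative first exons with different parental expression. Nesp, which encodes the neuroendocrine secretory protein Nesp55, is made from the maternal allele and its promoter is methylated on the paternal allele. Nespas, the antisense RNA, and Gnasxl, which encodes the long variant XLαs, are made from the paternal allele, and their shared region is methylated on the maternal allele. Exon 1A gives an untranslated RNA of the paternal allele and is also methylated on the maternal allele, whereas the promoter of Gsα itself at *Gnas* exon 1 is an unmethylated CpG island. The TET enzymes oxidise 5mC to 5hmC.

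Sequences are shown for the MspI fragment with the most tested CpGs ahead of the Nesp start (97 bp), for the fragment with all listed CpGs of the *Nespas* promoter (223 bp), for the fragment with the most differentially methylated CpGs (145 bp) and for the intron fragment with the highest methylation among the CpGs that fell (160 bp). They were read from mm9 on the plus strand, 5′ to 3′, and capitals mark the CpGs that are listed in the files. The fragment near Nesp (chr2:174109677-174109773) lies within a *Nespas* intron, and the other fragments (chr2:174120989-174121211, chr2:174125828-174125972 and chr2:174147420-174147579) lie within *Gnas* introns, except that the 3′ end of the Gnasxl fragment reaches into the next coding exon.
Nesp: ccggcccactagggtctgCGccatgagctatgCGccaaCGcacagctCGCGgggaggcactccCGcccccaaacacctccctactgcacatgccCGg
Nespas: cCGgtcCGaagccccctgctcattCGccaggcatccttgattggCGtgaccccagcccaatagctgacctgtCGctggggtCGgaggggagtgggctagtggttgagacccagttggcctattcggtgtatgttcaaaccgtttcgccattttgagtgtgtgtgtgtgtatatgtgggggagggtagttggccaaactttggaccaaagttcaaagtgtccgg
Gnasxl: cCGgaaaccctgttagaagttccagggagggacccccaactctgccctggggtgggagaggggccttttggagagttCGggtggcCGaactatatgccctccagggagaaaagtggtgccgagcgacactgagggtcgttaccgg
Intron: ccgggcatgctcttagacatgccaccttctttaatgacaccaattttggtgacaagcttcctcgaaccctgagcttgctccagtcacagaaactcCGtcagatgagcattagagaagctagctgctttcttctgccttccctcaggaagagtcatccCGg

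The listed CpGs were counted in these fragments. The Nesp fragment holds 8 CpGs, 7 of them listed, and the *Nespas* fragment holds 10, of which the 6 nearest to its start are listed. In the Gnasxl fragment 3 of 7 CpGs are listed, and in the intron fragment 2 of 4. Of the 230 listed CpGs, 108 lie in *Gnas* coding exons, 64 in *Gnas* untranslated regions, 50 in *Gnas* introns and 8 upstream of *Gnas*.

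Mean 5mC of the locus was lower in Tet3 KD NPCs. Over the 195 CpGs tested, it was 31.4% and 34.9% in the shScr libraries, compared with 25.2% and 27.0% in the shTet3 libraries, so that both shTet3 libraries lay below both shScr libraries. The group means were 33.2% ± 2.45 (SD, n = 2) and 26.1% ± 1.29 (SD, n = 2), a difference of −7.03 percentage points. An exact permutation test over libraries (two-sided) had p = 0.33, the lowest value possible with 2 against 2. Over the 662455 CpGs of the genome that met the same minimum, the difference was −6.94 percentage points. The BS libraries of the locus had 31.3% and 39.8% in control NPCs against 28.6% and 28.0% in Tet3 KD NPCs over 178 CpGs.

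Levels were unequal between the start sites of the locus. In shScr the Gnasxl promoter had the highest mean 5mC, 58.9% ± 10.4 (SD, n = 2), followed by an internal *Nespas* start with 41.5% ± 6.58, an internal start within the Nesp exon with 40.4% ± 6.44, the Nesp promoter with 36.1% ± 10.02, the *Nespas* promoter with 28.5% ± 20.4 and the exon 1A promoter with 19.004% ± 15.7. The promoter at *Gnas* exon 1 had 0.0845% ± 0.0901. The replicates of the Gnasxl promoter did not overlap with those of the next promoter in this order, and those of exon 1A did not overlap with those of *Gnas* exon 1. The ranges of the replicates overlapped between all other neighbours in the order. The window of the internal start within the Nesp exon shares CpGs with the Nesp window and with that of the internal *Nespas* start. The 2 promoters at retained-intron starts in the 3′ part of *Gnas* held no listed CpG.

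**Figure D1:**
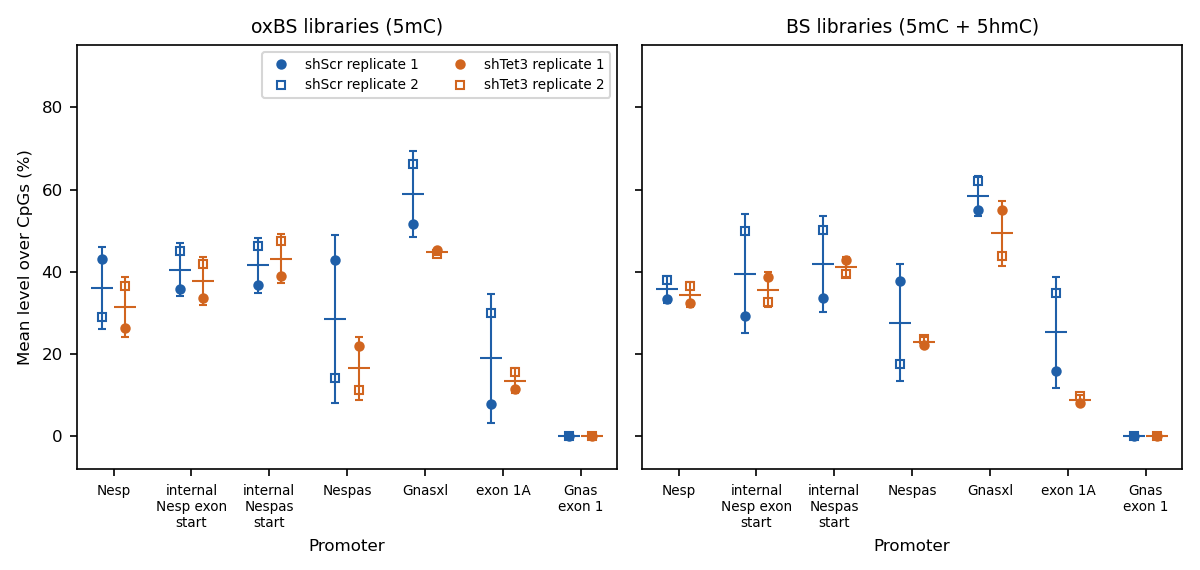
Mean level over CpGs (percent) of the 7 promoters with listed CpGs, in order of position, in oxBS libraries (left, 5mC) and BS libraries (right, 5mC and 5hmC). Points are libraries (blue shScr, orange shTet3, filled circle replicate 1, open square replicate 2), and the horizontal dash and bars are the mean ± SD (n = 2). The shScr replicates lie far apart at *Nespas* (42.9% and 14.1% in oxBS) and at exon 1A (7.92% and 30.1%), and *Gnas* exon 1 lies near 0 in every library.

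To compare promoters over libraries, the log2 ratio of methylated to unmethylated calls was fitted with limma over all 17940 promoters of the genome with at least 3 covered CpGs. None of them passed an adjusted p of 0.05 as lower or higher (0% called). At an unadjusted p under 0.05, 1071 promoters were lower (5.97% of those tested) and 0.68% were higher, and none of the 7 promoters of *Gnas* and *Nespas* was among them. In the BS libraries 0 promoters passed as well, and the exon 1A promoter had an unadjusted p = 0.0165, where 5.95% of promoters were lower at an unadjusted p under 0.05. The fitted differences of each promoter therefore carry no call.

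The Nesp promoter (start 174109821) was covered at 11 CpGs, with 198 to 397 calls per oxBS library. Its mean 5mC was 43.2% and 29.0% with shScr versus 26.2% and 36.7% with shTet3, and the groups overlapped. The difference was −4.62 percentage points, with a limma log2 difference of −0.30 ± 0.58 (SE, adjusted p = 0.899). The fragment printed above as Nesp had 48.0% and 24.1% in the shScr libraries, compared with 22.3% and 40.7% in the shTet3 libraries. The highest single level at this start was in the first shScr replicate, with 70.0% at position 174109695.

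Around the Nesp coding exon, which overlaps a *Nespas* exon on the other strand, the levels of both internal promoter windows overlapped between the groups. The window of the internal *Gnas* start (174110757, 24 CpGs) had 35.9% and 45.0% with shScr versus 33.7% and 41.9% with shTet3, with a limma log2 difference of −0.01 ± 0.55 (SE, adjusted p = 0.998). The window of the internal *Nespas* start (174110936, 10 CpGs) had 36.9% and 46.2% in the controls and 39.0% and 47.4% in the knockdown, with a log2 difference of 0.27 ± 0.55 (SE, adjusted p = 0.903). These intervals are wide. RRBS calls carry no information on the strand of transcription, so that a CpG here belongs to both genes.

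The *Nespas* promoter (start 174120937) was read at 6 CpGs of 1 fragment, 53 to 133 bp upstream of the start, with 259 to 325 calls per oxBS library. Mean 5mC was 42.9% and 14.1% in the controls and 21.9% and 11.2% in the knockdown. The first shScr replicate stood above the other 3 libraries at each of the 6 CpGs, and the mean of the second lay between those of the shTet3 replicates. The group means were 28.5% ± 20.4 and 16.5% ± 7.59 (SD, n = 2), with a limma log2 difference of −0.90 ± 0.77 (SE, adjusted p = 0.751). The BS libraries had 37.7% and 17.6% in control NPCs against 22.3% and 23.8% in Tet3 KD NPCs, so the gap between the shScr replicates was present in both libraries of the same DNA. Without shScr replicate 1 the sign of the fitted difference turned, to 0.18 on the log2 scale.

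**Figure D2:**
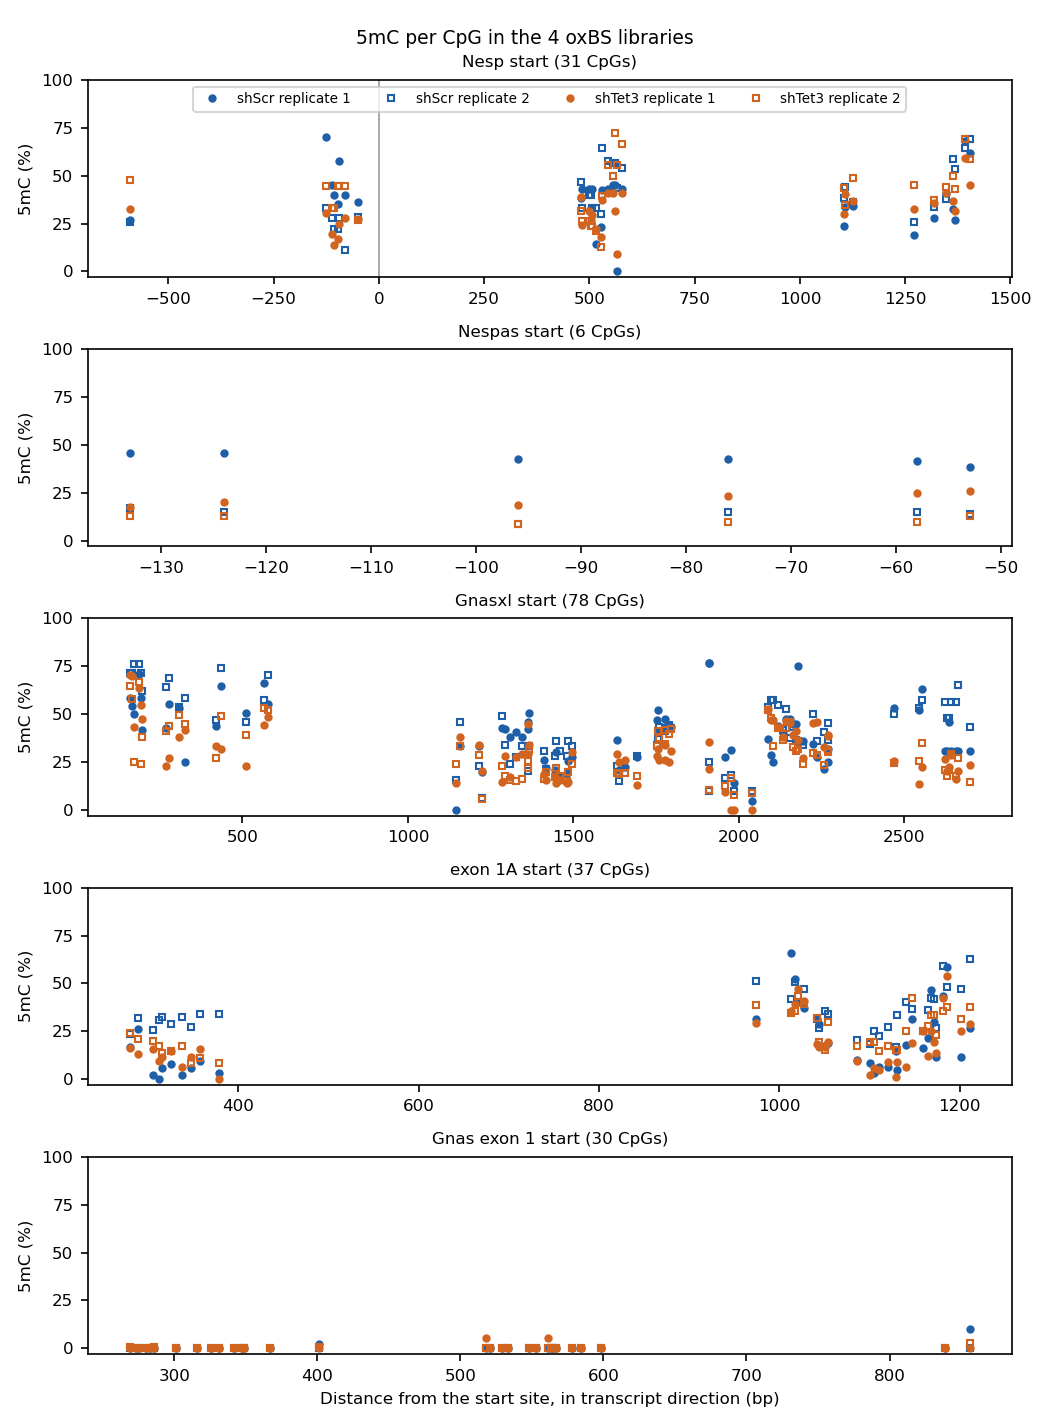
5mC (percent) of each CpG covered 10 times or more in all 4 oxBS libraries, against the distance from the start site in transcript direction (bp), for the CpGs around 5 start sites. Blue marks are shScr and orange marks shTet3, filled circles replicate 1 and open squares replicate 2, and a grey line marks the start where it falls in the panel. At *Nespas* the first shScr replicate lies apart from the other 3 libraries, and around *Gnas* exon 1 no CpG exceeds 10%.

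The Gnasxl promoter (start 174123360, 12 CpGs, 561 to 935 calls per oxBS library) was lower in both shTet3 libraries. Mean 5mC was 51.5% and 66.3% in the shScr libraries, compared with 45.3% and 44.3% in the shTet3 libraries, without overlap of the groups. The group means were 58.9% ± 10.4 and 44.8% ± 0.693 (SD, n = 2), a difference of −14.1 percentage points, which is smaller than the 14.7 points between the shScr replicates. The limma log2 difference was −0.86 ± 0.58 (SE, adjusted p = 0.707). The BS libraries had 55.1% and 62.0% with shScr versus 55.0% and 43.8% with shTet3.

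The Gnasxl region goes on beyond its promoter window, through the long coding exon and the intron after it, with 83 listed CpGs over 2549 bp. The 78 tested CpGs had a mean 5mC of 39.4% and 41.9% in the controls and 30.5% and 29.4% in the knockdown. The difference, −10.7 percentage points, was larger than the spread between the replicates of either group, which was 2.48 points in shScr and 1.07 points in shTet3. This was not particular to Gnasxl. It also held in the intron downstream of Nesp (6 CpGs), with 42.4% and 43.5% in the controls and 35.2% and 31.1% in the knockdown. The few CpGs in the 3′ part of *Gnas*, described below, had it too. Both shTet3 libraries lay below both shScr libraries at 47 of the 78 CpGs and above them at 0. Among all tested CpGs of the genome 26.3% lay below and 2.04% above, a background of CpGs of every level that was not matched to Gnasxl. The CpGs of the genome with a shScr mean between 20 and 60% had a median difference of −11.0 percentage points. Neighbouring CpGs share fragments and reads, so the 78 are not independent of each other. The BS libraries had 37.1% and 46.7% in control NPCs against 35.5% and 31.8% in Tet3 KD NPCs, a difference of −8.28 points, smaller than the 9.61 points between the shScr replicates. A limma fit over 50298 stretches of neighbouring CpGs of the genome, chosen after seeing the data, gave a log2 difference of −0.61 ± 0.67 (SE, adjusted p = 0.509). In that fit 3 stretches of the genome were lower (0.00596%), none of them in the locus, and the unadjusted p of the Gnasxl stretch was 0.366, where 21.2% of stretches were lower at an unadjusted p under 0.05.

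The exon 1A promoter (start 174153071, 6 annotated starts joined) had 10 CpGs on the first fragments of the exon 1A region, with 429 to 792 calls per oxBS library. Mean 5mC was 7.92% and 30.1% in control NPCs against 11.5% and 15.7% in Tet3 KD NPCs, so the shTet3 libraries lay between the shScr replicates. The limma log2 difference was −0.14 ± 0.82 (SE, adjusted p = 0.975). In the BS libraries the levels were 15.8% and 34.9% in the shScr libraries, compared with 8.10% and 9.73% in the shTet3 libraries, with no overlap, and the log2 difference was −1.73 ± 0.63 (SE, unadjusted p = 0.0165, adjusted p = 0.692). At this promoter the first shScr replicate was the lower one, in contrast to *Nespas*, where it was the higher one. The sign of the oxBS difference turned to positive without shScr replicate 2, with a log2 difference of 1.22, and without shTet3 replicate 1, with 0.06.

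Over the whole exon 1A region (45 listed CpGs, 37 tested) mean 5mC was 20.9% and 35.0% with shScr versus 18.6% and 24.7% with shTet3. The region therefore had the same order of the shScr replicates as its promoter, and the groups overlapped. The BS libraries over 45 CpGs had 29.8% and 40.7% in the controls and 21.3% and 26.9% in the knockdown.

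*Gnas* exon 1, the start of Gsα (174155507), was nearly free of methylation in both groups. Its promoter had 1 methylated call of 1351 in shScr replicate 1, 1 of 3346 in shScr replicate 2, 0 of 2754 in shTet3 replicate 1 and 4 of 2738 in shTet3 replicate 2, over 15 CpGs. The 95% Wilson intervals were 0.0131 to 0.418% and 0.00528 to 0.169% in the shScr replicates. In the shTet3 replicates they were 0 to 0.139% and 0.0568 to 0.375%. The limma log2 difference was −0.21 ± 0.99 (SE, adjusted p = 0.965), and its sign turned in other settings. No change was detectable at this depth.

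The few CpGs in the 3′ part of *Gnas*, where the antisense gene AF085738 overlaps it, were highly methylated. A pair of CpGs in an untranslated region had 91.0% and 93.5% in control NPCs against 84.5% and 87.1% in Tet3 KD NPCs. A further 3 CpGs in an intron had 94.3% and 96.9% in the shScr libraries, compared with 84.8% and 78.7% in the shTet3 libraries, over only 39 to 106 calls per library, and none of these CpGs was a DMP. Their limma log2 difference was −1.96 ± 0.88 (SE, unadjusted p = 0.0308, adjusted p = 0.219), where 21.2% of stretches were lower at an unadjusted p under 0.05. The last of the 3 had group means of 92.7% in shScr and 66.6% in shTet3, over 11 to 38 calls per library. The other CpGs of the stretch had 97.1% and 89.4%. None of the 3 was covered 10 times or more in every BS library.

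Differentially methylated positions (DMPs) were called at single CpGs from the methylated and unmethylated calls of both replicates by a likelihood ratio test, and had to have *q* below 0.01 over the genome and more than 10 points between the pooled levels. The locus held 12 hypo-DMPs and 0 hyper-DMPs among 195 tested CpGs, 6.15% of them, whereas in the genome 13.9% of CpGs were hypo-DMPs and 0.0814% hyper-DMPs. The share at the locus lay below the background in this fit, and without shScr replicate 2 it was 5.64% against a background of 5.90%. Among CpGs with a shScr mean between 20 and 60%, 7 of 126 were hypo-DMPs at the locus (5.56%), against 16.9% of 88029 in the genome, and the median difference was −9.25 percentage points at the locus against −11.0 in the genome. Both shTet3 libraries lay below both shScr libraries at 69 CpGs (35.4%, background 26.3%) and above them at 6 (3.08%, background 2.04%). This background takes in CpGs of every level and was not matched to the levels of the locus.

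This test takes the calls as independent and does not see the spread between replicates. With an overdispersion-corrected F test 0 CpGs of the locus and 0 of the genome passed, and 4 CpGs of the locus (2.05%, background 1.95%) were lower at an unadjusted p under 0.05 with a difference over 10 points. In simulated data with known falls this F test recovered 0% of them, so its count of 0 cannot decide whether the calls hold. Both shTet3 libraries lay below both shScr libraries at all 12 hypo-DMPs, and at 84859 of the 92374 hypo-DMPs of the genome. The CpGs were called from the same values, so this order is no separate evidence. The number of hypo-DMPs was 20 without shScr replicate 1 (10.3%, background 17.5%). Without shTet3 replicate 1 there were 6 hypo-DMPs (3.08%, background 8.75%) and 1 hyper-DMP (background 0.0755%), and without shScr replicate 2 there were 11 hypo-DMPs and 2 hyper-DMPs (1.03%, background 0.444%).

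The 12 hypo-DMPs lay in 3 places and on 9 fragments, 8 of them in the Gnasxl region, 2 in the intron before exon 1A and 2 in the exon 1A region. Nesp, *Nespas* and *Gnas* exon 1 had none. Of the 12, 5 lie in *Gnas* coding exons, 5 in introns and 2 in untranslated regions.

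The Gnasxl promoter window held 3 hypo-DMPs, at positions 174123629, 174123639 and 174123794, all in the coding exon. The largest fall was at 174123794, where levels were 64.9% and 74.0% with shScr versus 31.9% and 49.1% with shTet3, a pooled difference of −29.6 percentage points (*q* = 9.43e-05). In the BS libraries the difference at this CpG was −7.95 points, without a call. The largest rise in this window, 4.31 points at 174123520, had *q* = 1. At 174123639 the levels were 55.2% and 69.1% in the controls and 27.2% and 43.8% in the knockdown, a difference of −27.6 points (*q* = 3.79e-06).

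The fragment with the most hypo-DMPs was the Gnasxl intron fragment printed above, in which all 3 listed CpGs were called. At position 174125905 the level was 52.0% and 53.0% in control NPCs against 13.7% and 25.6% in Tet3 KD NPCs, a pooled difference of −33.1 percentage points (*q* = 1.52e-09), the largest among the 12. At 174125913 it was 63.2% and 57.6% in the shScr libraries, compared with 22.3% and 34.8% in the shTet3 libraries, and at 174125829 53.1% and 50% against 25.3% and 24.4%. The shScr replicates differed by at most 5.62 points at these CpGs, less than the gap to the shTet3 libraries. The shTet3 replicates lay further apart than that at 174125905 and 174125913. The fragment was picked by its calls from these same values, so the gap is no separate evidence. The fragment mean was 56.1% and 53.5% with shScr versus 20.5% and 28.2% with shTet3. The CpGs share a fragment and its reads, so they are not independent of each other.

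The same fragment was also lower in the BS libraries, with 58.6% and 48.9% in the controls and 32.2% and 32.4% in the knockdown. At 174125905 and 174125913 the BS comparison also gave a call, with differences of −28.1 and −19.01 points. The third CpG that was called in both kinds of library was 174123639, with −19.96 points in BS.

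Further along the Gnasxl region, 174124643 had 42.6% and 48.9% in control NPCs against 14.7% and 22.7% in Tet3 KD NPCs, and 174126015 had 30.8% and 56.5% in the shScr libraries, compared with 16.3% and 17.6% in the shTet3 libraries. The second of these had a wide gap between the shScr replicates. Both were lower in shTet3 by the test, with differences of −27.3 points (*q* = 0.000151) and −30.4 points (*q* = 0.00581). In the BS libraries the differences were −16.0 and −4.29 points, and neither CpG was called there. At 174126015 the first shScr oxBS replicate had only 13 calls.

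The intron fragment before exon 1A (printed above as Intron) carried hypo-DMPs at both of its listed CpGs, the second of which lies in the MspI site shared with the next fragment and was counted there. At 174147515 the level was 59.5% and 82.3% with shScr versus 52.9% and 44.7% with shTet3, and at 174147577 it was 59.1% and 88.2% in the controls and 44.2% and 50% in the knockdown. At both CpGs the shScr replicates were themselves called as different from each other, by 22.8 and 29.0 points. In the BS libraries the differences between the shRNAs were 1.69 and −4.08 points, with levels of 81.7% and 51.1% in the shTet3 replicates at the first CpG, so the fall was not seen there.

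In the exon 1A region the hypo-DMPs 174154084 and 174154239 had 66.1% and 42.1%, and 46.4% and 42.5%, in shScr. The shTet3 levels were 35.7% and 34.8% at the first and 25% and 33.3% at the second. At 174154084 the shScr replicates were called as different, with a difference of −24.1 points (replicate 2 minus 1), and the BS difference between the shRNAs was 0.67 points.

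**Figure D3:**
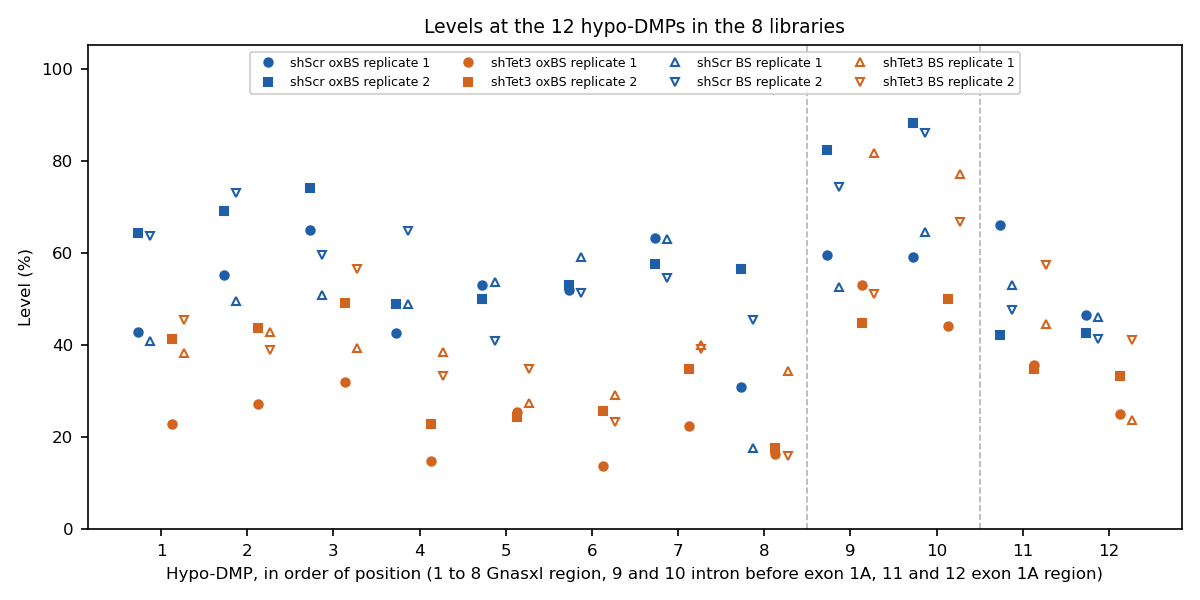
Levels (percent) at the 12 hypo-DMPs in order of position, where 1 to 8 lie in the Gnasxl region, 9 and 10 in the intron before exon 1A and 11 and 12 in the exon 1A region. Filled marks are oxBS and open marks BS libraries, blue shScr and orange shTet3. The oxBS levels of shTet3, from which the CpGs were called, lie below those of shScr at each CpG, and at 5 to 7, the Gnasxl intron fragment, the BS levels are also lower.

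The BS libraries gave 17 CpGs lower in shTet3 and 0 higher among 178 tested (9.55%, background 13.8% and 0.0621%). Of the 17, 7 lay in the exon 1A promoter, 2 further on in the exon 1A region, 7 in the Gnasxl region and 1 in the intron downstream of Nesp. Without shScr replicate 2, the library with the highest BS level at exon 1A, 3 CpGs were lower (1.69%, background 4.99%) and 2 higher (1.12%, background 0.302%), and without shTet3 replicate 1, 6 were lower (3.37%, background 8.57%). Of the 17, 3 CpGs were also called in oxBS. The largest of the falls in the exon 1A promoter was at 174153450, with BS levels of 16.0% and 52.5% in control NPCs against 2.63% and 6.38% in Tet3 KD NPCs. In oxBS the same CpG had 3.45% and 34.2% in the shScr libraries, compared with 0% and 8.33% in the shTet3 libraries (*q* = 0.0102). Of the 12 hypo-DMPs of the oxBS libraries, 10 had a lower pooled level in BS as well, and 6 had both shTet3 libraries below both shScr libraries there. Across the 167 CpGs covered in all libraries the oxBS and BS differences had r = 0.108, a description over CpGs that share libraries and fragments, and 100 were lower in both.

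The difference between the shScr replicates gives a yardstick that involves no knockdown. In oxBS libraries 12 CpGs were higher and 4 lower in replicate 2 than in replicate 1 among 196 tested, with a background of 6.06% higher and 0.764% lower. In BS libraries 7 were higher and 1 lower among 178 (background 5.57% and 0.74%). This compares 2 libraries and not conditions. The shTet3 replicates had 0 higher and 0 lower CpGs among 222 in oxBS (background 0.47% and 0.252%), where 20 and 8 had an unadjusted p under 0.05 and a difference over 10 points (background 5.34% and 4.57%), and 0 higher and 1 lower among 218 in BS (background 0.346% and 0.163%).

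The shScr replicates moved in opposite directions at different start sites. At the *Nespas* promoter replicate 2 lay below replicate 1 at all 6 CpGs, with calls at 174121033 (42.9% and 8.51%) and 174121061 (45.6% and 14.8%). At the exon 1A promoter it lay above replicate 1 at all 10 CpGs, with 4 calls, as at 174153383 (0% and 30.6%). The BS libraries of the same DNA had the same direction at all 6 *Nespas* CpGs and at 9 of 10 exon 1A CpGs, and over 167 CpGs the oxBS and BS differences between replicates had r = 0.312. Of the 12 CpGs called higher in oxBS, 11 were covered in BS and 10 of those were also higher, and of the 4 called lower, 3 were covered and all 3 were lower.

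**Figure D4:**
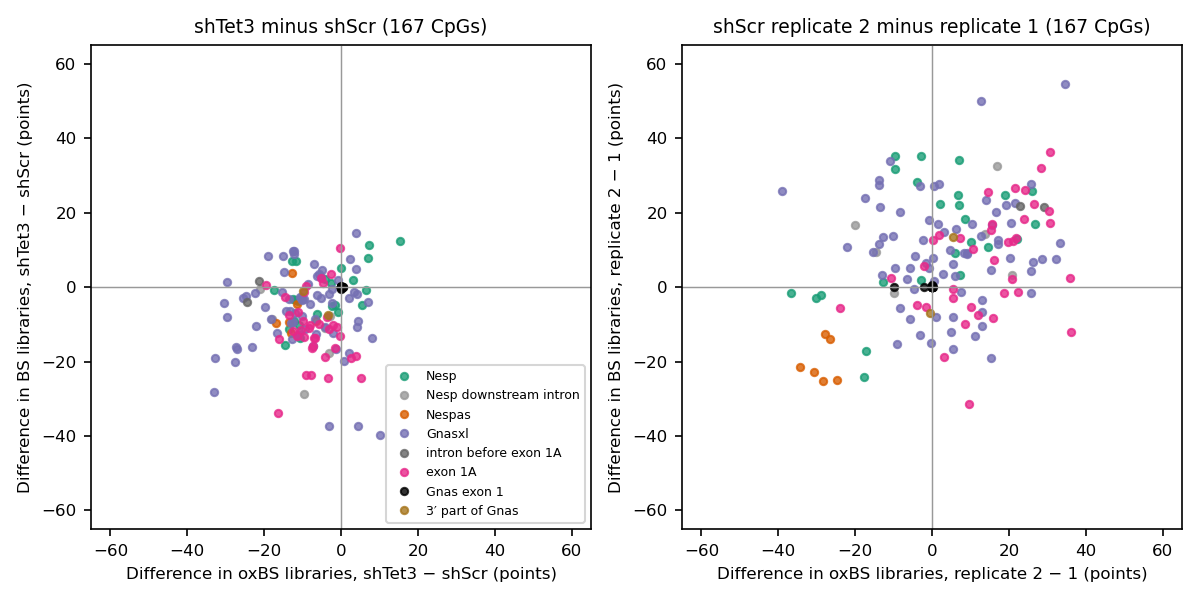
Difference per CpG in oxBS libraries (horizontal, percentage points) against BS libraries (vertical, percentage points), coloured by region, for the 167 CpGs covered in all libraries. The left panel shows shTet3 minus shScr, with most CpGs below 0 in both (100 of 167), and the right panel shScr replicate 2 minus replicate 1, where all 6 *Nespas* CpGs are lower in both and most exon 1A CpGs higher in both.

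5hmC was estimated as BS minus oxBS of the same DNA. Over the 167 CpGs it was −0.578 and 2.82 percentage points for the control DNAs and 2.56 and 0.732 for the knockdown DNAs, 1.12 ± 2.40 and 1.64 ± 1.29 (SD, n = 2). Within shScr 0 CpGs had BS above oxBS and 0 below, among 167 tested (background 0.33% and 0.17%), whereas 16 were above (9.58%, background 4.48%) and 6 below (3.59%, background 3.26%) at an unadjusted p under 0.05 with a difference over 10 points. Within shTet3 1 CpG of 215 was above and 0 below (background 0.0239% and 0.0141%). At an unadjusted p under 0.05 with a difference over 10 points, 24 were above (11.2%, background 3.39%) and 5 below (2.33%, background 2.59%). That CpG, 174125051 in the Gnasxl coding exon, had 46.4% and 44.7% in BS and 13.0% and 17.9% in oxBS, a difference of 30.2 points (*q* = 0.00368). Its call was lost when either replicate was left out, and with the F test, which passed 0 CpGs of the genome here. At the promoters BS minus oxBS had opposite signs in the replicates of shScr at Nesp (−12.3 and 8.74 points), *Nespas* (−5.19 and 3.44) and Gnasxl (3.53 and −4.29), and a negative value cannot come from 5hmC. 5hmC at a level below this spread was not detectable here.

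ZFP57, a zinc finger protein that keeps imprints, binds methylated TGCCGC. This motif, searched on both strands (the other strand reads GCGGCA), was found in 26.8% of the 57283 annotated promoters of 1501 bp. The *Nespas* window held 5 matches, exon 1A, *Gnas* exon 1 and the internal Nesp exon start 2 each, and Gnasxl 1, whereas Nesp and the internal *Nespas* start held none. None of the matches in the *Nespas* window contained a listed CpG. At the internal Nesp exon start both matches did, at 174110387, where oxBS levels were 0% and 43.5% in the controls and 9.09% and 55.6% in the knockdown, and at 174110399, with 43.2% and 54.2% in control NPCs against 40.9% and 66.7% in Tet3 KD NPCs. In the exon 1A window 1 match did, at 174153386, where oxBS levels were 5.77% and 32.3% with shScr versus 11.6% and 13.8% with shTet3.

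Other genes were set beside the locus as lists. Of 27 imprinted genes, 17 had 24 testable promoters, of which 0 passed limma, and 1 was lower (4.17%) and 0 higher at an unadjusted p under 0.05, where 5.97% and 0.68% of all promoters were. That promoter, named after its values were seen, was Ndn, a paternally expressed imprinted gene, with a difference of −5.29 points (adjusted p = 0.677). The largest rise of the list, also named after the fact, was 17.5 points at Peg10 (adjusted p = 0.677). Its largest fall, named in the same way, was −19.3 points at a promoter of Meg3 (adjusted p = 0.677). The median difference of these 24 promoters was −3.11 percentage points, with 17 lower and 7 higher. Of 40 genes of Gs and cyclic AMP signalling, such as adenylyl cyclases, protein kinase A subunits and phosphodiesterases, 37 had 59 promoters, of which 0 passed, with 4 lower (6.78%) and 1 higher (1.69%) at an unadjusted p under 0.05 and a median of −0.429 points. Over all promoters the median was −0.166 points, and over the 1729 promoters with a shScr mean between 20 and 60% it was −9.65. The 7 promoters of *Gnas* and *Nespas* had a median of −4.62 points, with 5 lower and 2 higher. The window of the internal Nesp exon start shares CpGs with those of Nesp and of the internal *Nespas* start, so the 7 are not independent.

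The promoters whose levels over the 8 libraries were most like those of *Nespas*, by the root mean square difference among 15474 promoters with at least 5 CpGs, were those of 1500002O10Rik (chromosome 2, 4.24 points), Gm11705 (chromosome 11, 4.25 points) and *Ptprr* (chromosome 10, 4.75 points), which encodes a receptor-type tyrosine phosphatase. In oxBS libraries 1500002O10Rik had 41.9% and 19.3% in the controls and 22.2% and 15.3% in the knockdown. *Ptprr* had 36.7% and 15.1% in control NPCs against 21.3% and 22.8% in Tet3 KD NPCs.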

How the data were processed

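According to the methods and labels, the authors trimmed reads with Trim Galore, aligned them to mm9 with Bismark and extracted calls. They deposited a coverage (unnormalized count of calls) and the percent of C and of T at each CpG. Methylated calls, recovered as percent times coverage, were whole at all 757812 CpGs. The authors' files list the same CpGs, each covered 5 times or more. Tool versions are not given in the sources used here.

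Samples were grouped by the labels' shRNA, library kind and replicate number. A CpG entered a comparison if covered 10 times or more in each library of it. The likelihood ratio test was that of methylKit without overdispersion, computed directly on all CpGs with Benjamini-Hochberg adjustment. Promoters were fitted with limma 3.58.1 (R 4.3.3, trend) on log2((methylated calls + 1)/(unmethylated calls + 1)), adjusted p under 0.05. Means are unweighted over CpGs. In limma fits without 1 replicate the lone library is assumed to vary like the other group. Intervals (95%, Wilson) and count tests cover counting error only, since PCR copies are not independent molecules.

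The tests were run on simulated data with known changes first. Named items were each promoter, the DMPs with the largest fall and rise, the fragment with most DMPs, 2 gene lists and the 3 promoters most like *Nespas*. Members and lists were chosen with earlier results of these data known. BS and oxBS libraries with the same shRNA and number were taken to come from the same DNA, which the labels do not state. The r of their replicate deviations was 0.517 in shScr and 0.260 in shTet3 over 612975 CpGs. At the locus it was 0.312 and 0.081 over 167 CpGs. What the same number means across the shRNAs is not stated. Alternatives were other coverage minimums (5 and 20), a coverage cap, F and Fisher's exact tests, mean percent, read weighting, wider promoters, promoters with any CpG, BS libraries, the replicate block and leaving out each replicate. CpG stretches (gaps of at most 900 bp) were added after seeing the data.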

Additional observations from a re-analysis of the deposited data

Results flagged for a closer look

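At the exon 1A promoter, BS minus oxBS over 10 CpGs was 7.89 and 4.77 percentage points in the shScr replicates and −3.40 and −5.93 points in the shTet3 replicates. The sign was thus the same within each shRNA and opposite between them, with a difference of −11.0 points (shTet3 minus shScr), which was not tested. The negative values in shTet3 cannot come from 5hmC. No other promoter or stretch of the locus with at least 3 CpGs had such a pattern.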

How the results depend on the processing

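The 12 hypo-DMPs became 0 with the overdispersion-corrected F test, which passed 0 CpGs of the genome and recovered 0% of the falls in simulated data. With it 4 CpGs of the locus were lower at an unadjusted p under 0.05 with a difference over 10 points. The number of hypo-DMPs changed in both directions when a replicate was left out. Hyper-DMPs, 0 otherwise, were 0 to 2 when a replicate was left out (2 without shScr replicate 2, 1 without shTet3 replicate 1). The 17 CpGs lower in BS libraries became 3 to 24 with a replicate left out (3 without shScr replicate 2, 6 without shTet3 replicate 1, 24 without shScr replicate 1), and the CpGs higher there 0 to 2 (2 without shScr replicate 2), settings chosen after seeing the data. The counts of CpGs with BS above oxBS changed in both shRNAs with 1 replicate left out, and those with BS below oxBS changed in shTet3 alone. The F test gave 0 above in shTet3, where it passed 0 CpGs of the genome. The fitted log2 difference turned at the internal Nesp exon start with coverage minimums of 5 (0.033) and 20 (0.22), at the internal *Nespas* start with wider promoters (−0.0056), and at *Gnas* exon 1 with the mean percent (0.0078 points). When a replicate was left out it ranged from −0.75 to 0.15 at Nesp, −0.23 to 0.20 at the internal Nesp exon start, −1.99 to 0.18 at *Nespas*, −1.49 to 1.22 at exon 1A and −1.37 to 0.96 at *Gnas* exon 1. The fitted difference turned sign without shScr replicate 1 (Nesp 0.15, *Nespas* 0.18, *Gnas* exon 1 0.45), without shScr replicate 2 (internal Nesp exon start 0.20, exon 1A 1.22) and without shTet3 replicate 1 (internal Nesp exon start 0.14, exon 1A 0.06, *Gnas* exon 1 0.96). At Gnasxl it kept its sign in all settings, between −1.22 and −0.50 with a replicate left out, and adjusted p ranged from 0.159 to 1. Among the stretches, with a replicate left out, the Nesp stretch ranged from −0.24 to 0.18 and *Gnas* exon 1 from −0.45 to 1.38. Nesp turned without shScr replicate 2 (0.09) and shTet3 replicate 1 (0.18), *Nespas* without shScr replicate 1 (0.18), and *Gnas* exon 1 with BS libraries (−0.19), without shScr replicate 2 (−0.45) and without shTet3 replicate 2 (−0.05). The cause was not tested. With the replicate block, 12 hypo-DMPs and 0 hyper-DMPs were called, and the difference of the locus mean was −7.03 points (−6.21 in pair 1 and −7.86 in pair 2). Among the promoter and stretch fits the block changed no call except at the stretch of 3 CpGs in the 3′ part of *Gnas*, with an adjusted limma p of 0.0296. The share of all stretches called with the block is not given here, so this call cannot be set against a background. Without shScr replicate 1 the log2 difference of this stretch was −2.27. The numbers were not shown to pair shScr and shTet3 libraries (r of their deviations −0.0409 over 612975 CpGs and 0.102 over 167 at the locus). Over the settings the locus mean difference stayed negative, from −8.77 to −5.30 points with a replicate left out. With 2 libraries a group an exact permutation test of a single value cannot reach a p below 0.33, and coverage limits a single CpG to large differences.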
